A study of Homo sapiens with 16 samples.

Results

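Genes for enzymes that write methyl and acetyl marks on histones, together with the lysine demethylases that remove methyl marks, were examined in 2 BRAF inhibitor–resistant (BRAFi-R) melanoma cell lines. The members were all protein-coding genes of the count table with the symbols of the KMT2, KMT5, KAT2 to KAT8, SETD, SETDB, SUV39H, EHMT, PRDM and KDM2 to KDM8 series, plus NSD1, NSD2, NSD3, DOT1L, EP300 and CREBBP. This gave 68 of 34228 genes, chosen by name but with earlier results of these data known. They held 17 demethylases, 15 PRDM proteins, 9 acetyltransferases and 6 other SET domain proteins. The methyltransferases were 7 for H3K4, 6 for H3K9, 4 for H3K36, 3 for H4K20 and 1 for H3K79. The member on the Y chromosome, KDM5D, was counted and its level is not given.

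The cells were 451Lu-R and 1205Lu-R, human melanoma lines with acquired resistance to BRAF inhibitors, and each received either 2.5 μM corin or the vehicle DMSO for 24 h. Corin is a hybrid inhibitor of the CoREST complex that blocks both its histone deacetylases, HDAC1 and HDAC2, and its lysine demethylase LSD1. Each of the 4 groups had 2 RNA-Seq libraries, with totals between 9516687 and 11797788 estimated counts. The study also holds 8 libraries of the same lines treated with 5 μM PLX4032, a BRAF inhibitor, alone or with corin, which were not analysed here. Per the paper, resistant lines were maintained in 5 μM PLX4032. Whether and when the cultures used here were taken off it is not stated. The sources used here do not say whether replicates were separate cultures, so the p-values measure only the spread between these libraries, and each line stands for itself and not for a kind of melanoma.

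Histone marks are set by enzymes that each act on particular residues. KMT2A to KMT2D and the SETD1 proteins methylate H3K4 at promoters and enhancers, and KMT2E was grouped with them by family name. NSD proteins and SETD2 methylate H3K36, DOT1L methylates H3K79 in transcribed genes, and SUV39H, EHMT and SETDB proteins methylate H3K9 in silent chromatin. Acetyltransferases such as EP300 and CREBBP add acetyl groups that histone deacetylases remove, while the JmjC demethylases of the KDM2 to KDM8 series reverse lysine methylation. Corin acts on the erasers HDAC1, HDAC2 and LSD1, none of which is a member, so the data give the transcript levels of the opposing and parallel enzymes after the CoREST erasers were blocked.

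Lineage markers separated the lines. MITF, the master regulator of the melanocyte lineage, was at 762 and 780.4 CPM (estimated counts scaled by library size, with TMM factors) in 451Lu-R with DMSO and at 8.39 and 6.58 CPM in 1205Lu-R, where SOX10, another lineage factor, was at 0 in all 4 libraries. AXL, a receptor kinase of undifferentiated melanoma, was at 0.179 and 0 CPM in 451Lu-R and at 989 and 1019 CPM in 1205Lu-R. All 9 melanocyte genes examined were thus lower in 1205Lu-R with DMSO and all 3 undifferentiated-state genes higher, so the melanocyte markers that define the tissue of origin were largely absent from 1205Lu-R. With corin in 451Lu-R, MITF and SOX10 fell and 0 of the 9 rose by 2-fold (DCT had 0.78 and PAX3 0.68 on the log2 scale), and the 9 genes summed to 13369 and 13380 CPM with DMSO and 12165 and 12140 CPM with corin. In 1205Lu-R their sum was 34.8 and 34.8 CPM against 44.2 and 41.7 CPM, and MITF, PMEL and S100B rose. PAX3, the largest part of that sum with DMSO, was lower with corin, at 18.7 and 19.5 CPM against 25.8 and 26.1 CPM (−0.39). PMEL was low in 1205Lu-R, at 0.0943 and 0.884 CPM with DMSO and 1.61 and 1.03 CPM with corin. By a second method, DESeq2, 2 of the 9 genes rose in this line. The 3 undifferentiated-state genes summed to 4.83 and 3.72 CPM against 374 and 365 CPM in 451Lu-R, where nearly all of the sum with corin was NGFR. In 1205Lu-R they summed to 1202 and 1222 CPM against 693 and 678 CPM. There AXL and WNT5A fell, while NGFR rose from 5.84 and 6.385 CPM to 197.3 and 190.6 CPM.

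Markers of other cells were low and some moved with corin. The measured keratinocyte genes, KRT5 and KRT14, summed to 0.268 and 0.402 CPM against 5.07 and 4.61 CPM in 451Lu-R, where KRT14 rose, and to 0 in 1205Lu-R. The leukocyte gene CD14 rose in 451Lu-R, from 0.268 and 0 CPM to 1.40 and 1.54 CPM, and was at most 0.431 CPM in 1205Lu-R, while PTPRC was at most 0.262 CPM in any library. The endothelial genes PECAM1, VWF and CDH5 summed to 1.43 and 1.31 CPM against 8.66 and 9.33 CPM in 451Lu-R and to 11.1 and 11.3 CPM against 26.5 and 22.9 CPM in 1205Lu-R. VWF rose in both lines, CDH5 was at most 0.615 CPM, and PECAM1 was at 0 in 451Lu-R and between 5.77 and 10.2 CPM in 1205Lu-R. The part of all these markers in the members' results was not tested.

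Most methyltransferases and acetyltransferases had lower transcript levels with corin in both lines, whereas demethylases were split and the PRDM family moved in both directions. A gene was said to rise or fall when it passed an FDR (Benjamini-Hochberg adjusted p) under 0.05 in edgeR's quasi-likelihood test, fitted over all genes, together with a change of 2-fold or more. In 451Lu-R, 20 of 63 members tested fell (31.7%) and 6 rose (9.52%), where 13.3% of all 14530 genes tested fell and 22.2% rose. In 1205Lu-R, 11 of 61 members fell (18.0%) and 3 rose (4.92%), against 9.80% and 22.0% of all 14563 genes. Thus members were lower more often, and higher less often, than genes at large in both lines, which is given as a description with no test of the set. In bulk RNA, fewer cells that express a gene and less RNA of that gene per cell cannot be told apart.

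The median log2 fold change of the members was −0.56 in 451Lu-R and −0.44 in 1205Lu-R, beside 0.03 over all genes in each. Without the limit on fold change, 42 members were lower and 18 higher in 451Lu-R (all genes 38.6% and 41.3%), and 37 were lower and 15 higher in 1205Lu-R (37.8% and 40.4%). With a 4-fold limit and an FDR under 0.001, 3 members fell and 3 rose in 451Lu-R (2.72% and 12.4% of all genes), where DESeq2 gave 3 and 1 and did not call PRDM1 and PRDM8. Under that rule 0 members fell and 1 rose in 1205Lu-R by edgeR (1.43% and 11.3% of all genes); DESeq2 gave 0 and 1 as well, and 37 members were lower at an unadjusted p under 0.05. Most of the falls were therefore between 2-fold and 4-fold.

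**Figure D1:**
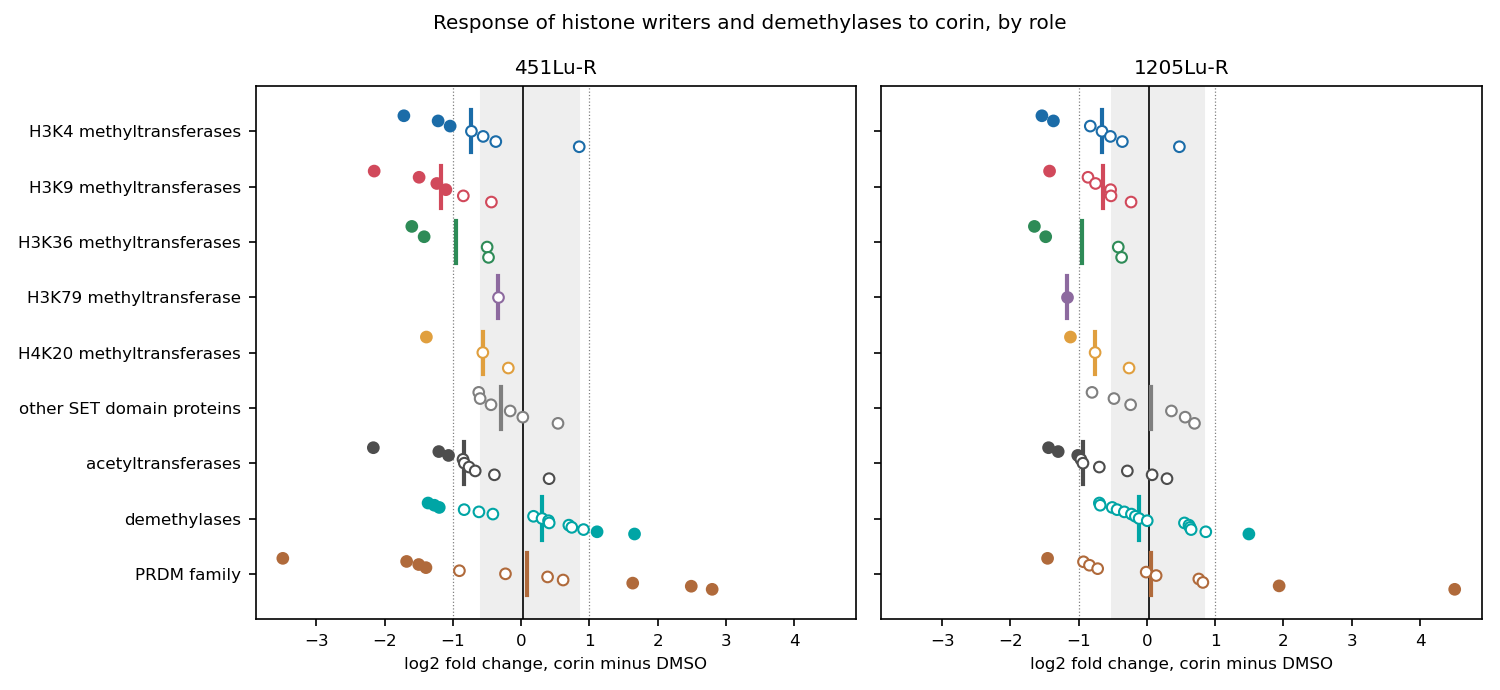
Each point is 1 member, placed on the x axis by its log2 fold change (corin minus DMSO, 2 libraries in each group) (left panel 451Lu-R, right panel 1205Lu-R) and on the y axis by role. Filled points passed the FDR and the 2-fold limit (dotted lines), coloured bars are role medians, the black line and grey band are the median and the middle 50% of all genes tested, and PRDM16 in 451Lu-R lies outside the axis and is not drawn. All 6 H3K9 and all 4 H3K36 methyltransferases lie left of the black line in both panels.

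H3K36 methyltransferases showed the largest drop in summed level relative to DMSO among the role groups of more than 1 gene. Their 4 transcripts together made 293 and 297 CPM with DMSO and 137 and 143 CPM with corin in 451Lu-R, and 624 and 636 CPM against 257 and 248 CPM in 1205Lu-R. NSD2, which sets H3K36me2 and lies on chr4:1871393-1982207 (GRCh38, + strand), had the highest level per kilobase of transcript among members as a mean over the 8 libraries, though not in every group. It fell from 91.0 and 94.3 CPM to 30.8 and 29.4 CPM in 451Lu-R (log2 fold change −1.60 ± 0.06 SE, adjusted p = 6.88e-15). In 1205Lu-R, it was higher to begin with and fell from 358 and 371 CPM to 113 and 112 CPM (−1.65 ± 0.04, adjusted p = 2.23e-20), still above both DMSO libraries of 451Lu-R.

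NSD1, the H3K36me2 writer affected in Sotos syndrome, followed NSD2 closely. It was at 98.4 and 97.2 CPM with DMSO and at 37.2 and 34.9 CPM with corin in 451Lu-R (−1.42 ± 0.06), and at 145 and 140.0 CPM against 51.9 and 46.9 CPM in 1205Lu-R (−1.48 ± 0.05). The other H3K36 enzymes did not reach 2-fold in either line: SETD2, the H3K36me3 writer, had −0.50 ± 0.09 and −0.42 ± 0.06, and NSD3 had −0.48 ± 0.06 and −0.37 ± 0.06. For none of the 4 was a difference between the lines in this response detected, with differences of −0.09 ± 0.07 for NSD2 and −0.10 ± 0.08 for NSD1.

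**Figure D2:**
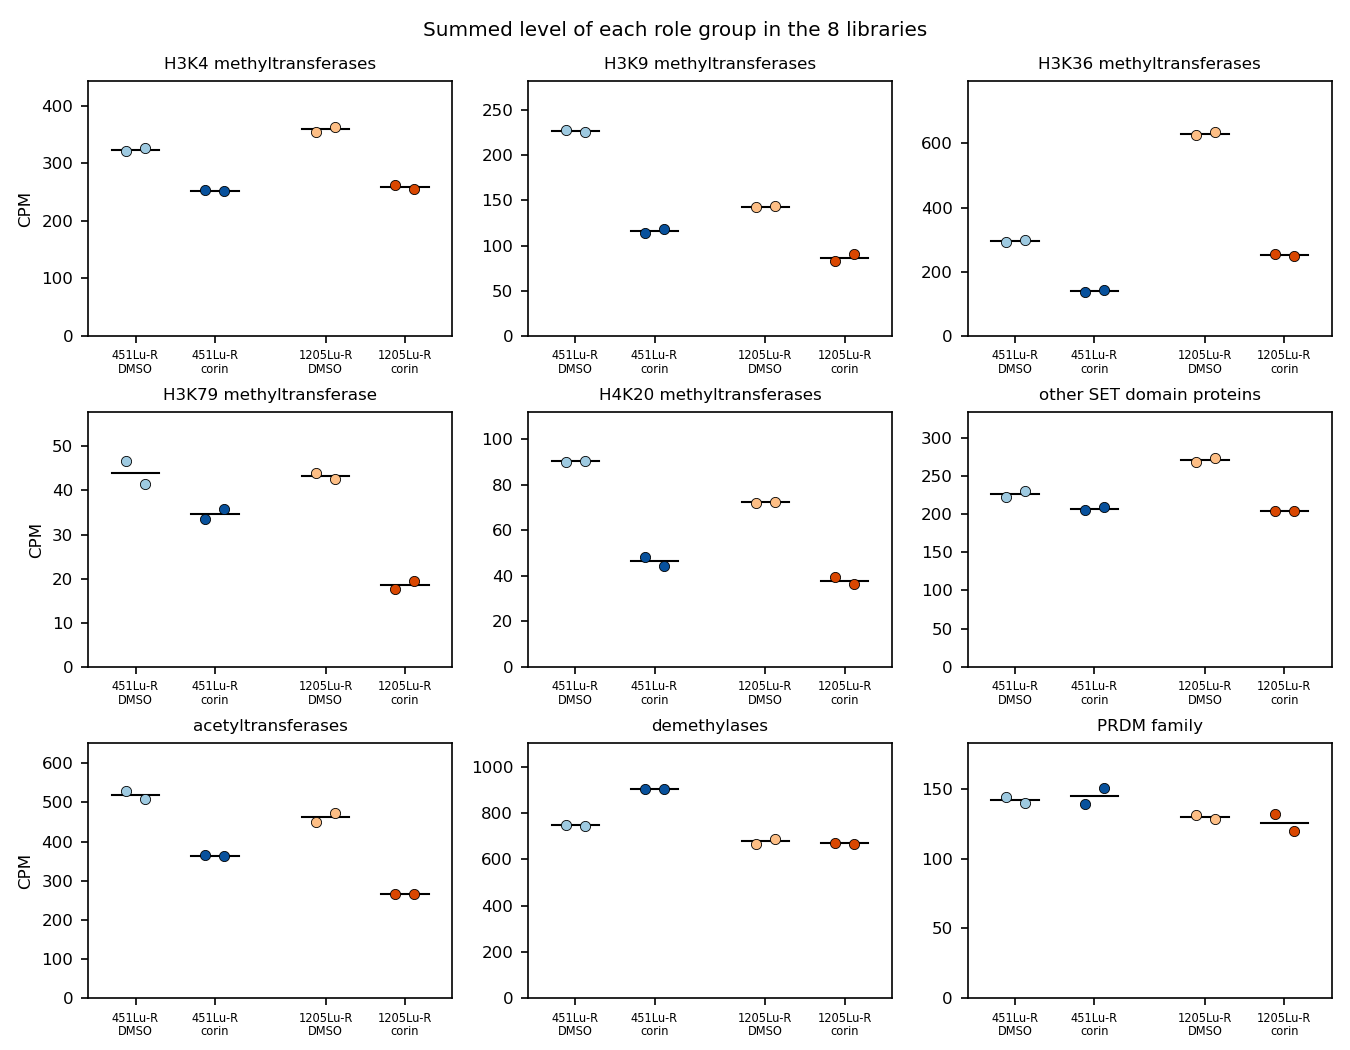
Summed CPM of the members of each role (y axis, from 0) in the 4 groups (x axis), with 1 point per library and a bar for the mean of the 2 libraries; KDM5D is left out of the demethylases. H3K36 methyltransferases went from 293 and 297 CPM to 137 and 143 CPM in 451Lu-R, while the demethylases went from 751 and 745 CPM to 907 and 905 CPM.

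H3K9 methyltransferases were all lower in both lines. Summed over 6 genes they made 227 and 226 CPM with DMSO and 114 and 118 CPM with corin in 451Lu-R, and 143 and 143 CPM against 82.9 and 90.2 CPM in 1205Lu-R. In 451Lu-R, 4 of the 6 fell (all genes 13.3%) and the median log2 fold change was −1.17. In 1205Lu-R, 1 fell (all genes 9.80%) and the median was −0.64. SUV39H1, which trimethylates H3K9 in constitutive heterochromatin, was the one that fell in both: 24.2 and 21.6 CPM became 5.42 and 4.72 CPM in 451Lu-R (−2.15 ± 0.14, adjusted p = 1.28e-11), and 30.9 and 30.3 CPM became 9.57 and 12.2 CPM in 1205Lu-R (−1.43 ± 0.11, adjusted p = 9.90e-11). Of the exonic bases of SUV39H1, 21.2% lie opposite a noncoding RNA gene, so reads of the pair may be mixed. The SUV39H1 paralog SUV39H2 fell in 451Lu-R (34.0 and 28.2 CPM to 11.6 and 10.2 CPM, −1.49 ± 0.11) and had −0.53 ± 0.08 in 1205Lu-R. SETDB1, which silences retroelements with KRAB zinc finger proteins, and its relative SETDB2 fell in 451Lu-R as well (−1.23 ± 0.09 and −1.10 ± 0.10).

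EHMT1 and EHMT2, the GLP and G9a subunits of the main H3K9me2 writer, stayed within 2-fold in both lines (−0.85 ± 0.08 and −0.43 ± 0.06 in 451Lu-R, −0.53 ± 0.08 and −0.23 ± 0.10 in 1205Lu-R). All 6 H3K9 enzymes had an FDR under 0.05 on the lower side in both lines. The response differed between the lines at an FDR under 0.05 in 3 of the 6 (SUV39H1, SUV39H2 and SETDB1), each by less than 2-fold.

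H3K4 methyltransferases were lower with 1 exception. KMT2B, which keeps H3K4 methylation at promoters, fell from 34.0 and 34.0 CPM to 14.8 and 14.1 CPM in 451Lu-R (−1.21 ± 0.09, adjusted p = 1.55e-10) and from 36.9 and 38.9 CPM to 12.8 and 12.4 CPM in 1205Lu-R (−1.54 ± 0.09, adjusted p = 1.35e-12). KMT2D, an H3K4me1 writer at enhancers, fell from 64.6 and 61.2 CPM to 31.1 and 29.3 CPM in 451Lu-R (−1.04 ± 0.07) and from 42.0 and 42.5 CPM to 17.0 and 14.7 CPM in 1205Lu-R (−1.37 ± 0.09). KMT2D in 451Lu-R was close to the 2-fold limit, and without corin replicate 2 its value was −1.0 and just under it.

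KMT2C, the paralog of KMT2D in the same kind of complex, was the exception: it was higher with corin, at 98.1 and 96.0 CPM against 51.2 and 58.2 CPM in 451Lu-R (0.85 ± 0.06, adjusted p = 5.31e-11) and at 101 and 101 CPM against 73.0 and 77.7 CPM in 1205Lu-R (0.48 ± 0.05, adjusted p = 4.65e-09), both under 2-fold. SETD1B fell in 451Lu-R, from 19.9 and 20.8 CPM to 5.69 and 6.56 CPM (−1.72 ± 0.13), and had −0.66 ± 0.11 in 1205Lu-R. KMT2A, SETD1A and KMT2E had values from −0.73 to −0.37 in 451Lu-R and from −0.83 to −0.36 in 1205Lu-R.

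The H4K20 and H3K79 writers divided between the lines. KMT5A, the H4K20me1 writer tied to the cell cycle, fell in 451Lu-R (51.0 and 51.8 CPM to 19.9 and 18.9 CPM, −1.39 ± 0.08) and had −0.76 ± 0.08 in 1205Lu-R. KMT5B, which adds further methyl groups, fell in 1205Lu-R (32.8 and 33.3 CPM to 15.1 and 14.3 CPM, −1.12 ± 0.09) and had −0.56 ± 0.08 in 451Lu-R. DOT1L, the H3K79 writer, likewise fell in 1205Lu-R (43.9 and 42.5 CPM to 17.6 and 19.5 CPM, −1.17 ± 0.08) and had −0.34 ± 0.08 in 451Lu-R. Under the 2-fold rule none of these 3 differences between lines passed: KMT5A differed by 0.59 ± 0.11, KMT5B by −0.60 ± 0.12 and DOT1L by −0.87 ± 0.12, each with an FDR under 0.05.

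The 6 other SET domain proteins include enzymes with nonhistone substrates. By edgeR and DESeq2, 0 of them passed in either line. By edgeR, 13.3% of all genes fell and 22.2% rose in 451Lu-R, and 9.80% fell and 22.0% rose in 1205Lu-R. At an unadjusted p under 0.05, 1 of the 6 was higher and 4 lower in 451Lu-R, and 3 were higher and 3 lower in 1205Lu-R. SETD5, mutated in intellectual disability, had −0.44 ± 0.06 and −0.24 ± 0.08, and SETD7 had −0.16 ± 0.05 and −0.48 ± 0.04. SETD6, which methylates the NF-κB subunit RELA, had 0.03 ± 0.16 and 0.70 ± 0.16, and 27.1% of its exonic bases are shared with other genes, mostly on the opposite strand.

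Of the 9 acetyltransferases, 3 fell in each line (all genes 13.3% in 451Lu-R and 9.80% in 1205Lu-R). KAT2A, KAT5 and CREBBP were those 3 in both. KAT2A (GCN5), a catalytic subunit of SAGA and ATAC, fell from 21.0 and 18.9 CPM to 3.41 and 5.54 CPM in 451Lu-R (−2.16 ± 0.17, adjusted p = 2.81e-10) and from 43.3 and 48.1 CPM to 16.9 and 18.8 CPM in 1205Lu-R (−1.30 ± 0.09, adjusted p = 8.01e-12). Of the exonic bases of KAT2A, 10.7% are shared with a protein-coding gene on the same strand. KAT5 (TIP60), the catalytic subunit of the NuA4 complex, fell from 28.7 and 29.8 CPM to 15.0 and 12.5 CPM in 451Lu-R (−1.06 ± 0.10) and from 26.1 and 25.8 CPM to 8.76 and 9.65 CPM in 1205Lu-R (−1.44 ± 0.11). Its 451Lu-R value was −0.95, under the limit, without corin replicate 2, and 38.6% of its exonic bases lie opposite RNASEH2C, so reads of the pair may be mixed.

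CREBBP, the paralog of EP300 that acetylates H3K27 and H3K18, fell from 69.2 and 66.9 CPM to 29.1 and 29.2 CPM in 451Lu-R (−1.20 ± 0.07) and from 93.1 and 92.8 CPM to 45.01 and 44.02 CPM in 1205Lu-R (−1.01 ± 0.05). EP300 itself had −0.39 ± 0.04 in 451Lu-R and, just short of 2-fold, −0.97 ± 0.05 in 1205Lu-R, where 93.9 and 98.7 CPM became 47.7 and 47.4 CPM. Within the MYST group, KAT7 (HBO1) had −0.83 ± 0.06 and −0.94 ± 0.07, and KAT6B had −0.85 ± 0.12 and −0.70 ± 0.12. The values of KAT6A (MOZ) were 0.41 ± 0.05 for 451Lu-R but −0.29 ± 0.05 for 1205Lu-R. Summed over the 9 genes, acetyltransferase transcripts made 529 and 509 CPM with DMSO and 365 and 362 CPM with corin in 451Lu-R, and 451 and 473 CPM against 266 and 265 CPM in 1205Lu-R.

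The summed level of the demethylases did not follow that of the writers. In 451Lu-R their sum was higher with corin, at 907 and 905 CPM against 751 and 745 CPM, and in 1205Lu-R it was 673 and 668 CPM against 669 and 691 CPM. Of 15 tested in 451Lu-R, 2 rose and 3 fell (2 and 2 by DESeq2, which did not call KDM8), beside 22.2% and 13.3% of all genes. At an FDR under 0.05 alone, 9 were higher and 6 lower (all genes 41.3% and 38.6%). Of 15 tested in 1205Lu-R, 1 rose and 0 fell by edgeR and by DESeq2, beside 22.0% and 9.80% of all genes by edgeR. There 6 were higher and 5 lower at an unadjusted p under 0.05. KDM7A, a JmjC enzyme with a PHD finger that removes H3K9me2 and H3K27me2, rose in both lines: 15.5 and 14.6 CPM became 46.0 and 48.2 CPM in 451Lu-R (1.66 ± 0.08, adjusted p = 3.83e-13), and 12.3 and 12.8 CPM became 36.6 and 31.8 CPM in 1205Lu-R (1.49 ± 0.10, adjusted p = 1.13e-11). KDM7A lies on chr7:140084746-140176983 (GRCh38, − strand), and its exons overlap no other gene in GENCODE 44.

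The KDM3, KDM4 and KDM5 series each held members on both sides. KDM3A, an H3K9me2 demethylase induced by hypoxia, rose in 451Lu-R (43.0 and 41.5 CPM to 89.8 and 91.1 CPM, 1.11 ± 0.06) and had 0.65 ± 0.07 in 1205Lu-R. KDM5B, an H3K4me3 demethylase linked to slow-cycling melanoma cells, went from 107 and 112 CPM to 202 and 206 CPM in 451Lu-R (0.92 ± 0.04, adjusted p = 1.33e-14) and from 40.3 and 44.6 CPM to 61.7 and 65.0 CPM in 1205Lu-R (0.63 ± 0.06, adjusted p = 8.19e-09), short of 2-fold in each. Its relative KDM5C was lower in both (−0.41 ± 0.04 and −0.44 ± 0.05), and KDM5A had values of 0.41 ± 0.04 for 451Lu-R but −0.11 ± 0.04 for 1205Lu-R. The H3K9 and H3K36 demethylases KDM4A, KDM4B and KDM4C had values from 0.31 to 0.74 in 451Lu-R and from 0.55 to 0.86 in 1205Lu-R. For KDM4A, 48.8% of the exonic bases are shared with other genes, mostly with a readthrough gene on the same strand, so its level is uncertain.

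Further demethylases were lower. KDM2B, which recruits a Polycomb complex to CpG islands, fell in 451Lu-R (35.4 and 36.7 CPM to 14.5 and 13.0 CPM, −1.36 ± 0.09) and had −0.68 ± 0.10 in 1205Lu-R, whereas its paralog KDM2A had 0.18 ± 0.06 and 0.00 ± 0.05. KDM3B, the paralog of KDM3A, had −0.83 ± 0.05 and −0.70 ± 0.05, opposite in sign to KDM3A in both lines. KDM4D and KDM8 also fell in 451Lu-R, from at most 3.42 CPM (−1.27 ± 0.31 and −1.20 ± 0.37), and had −0.17 ± 0.31 and −0.51 ± 0.37 in 1205Lu-R. KDM6A (UTX), which removes H3K27me3, had 0.70 ± 0.08 for 451Lu-R but −0.23 ± 0.11 for 1205Lu-R, while KDM6B (JMJD3) had −0.62 ± 0.09 and −0.33 ± 0.15.

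**Figure D3:**
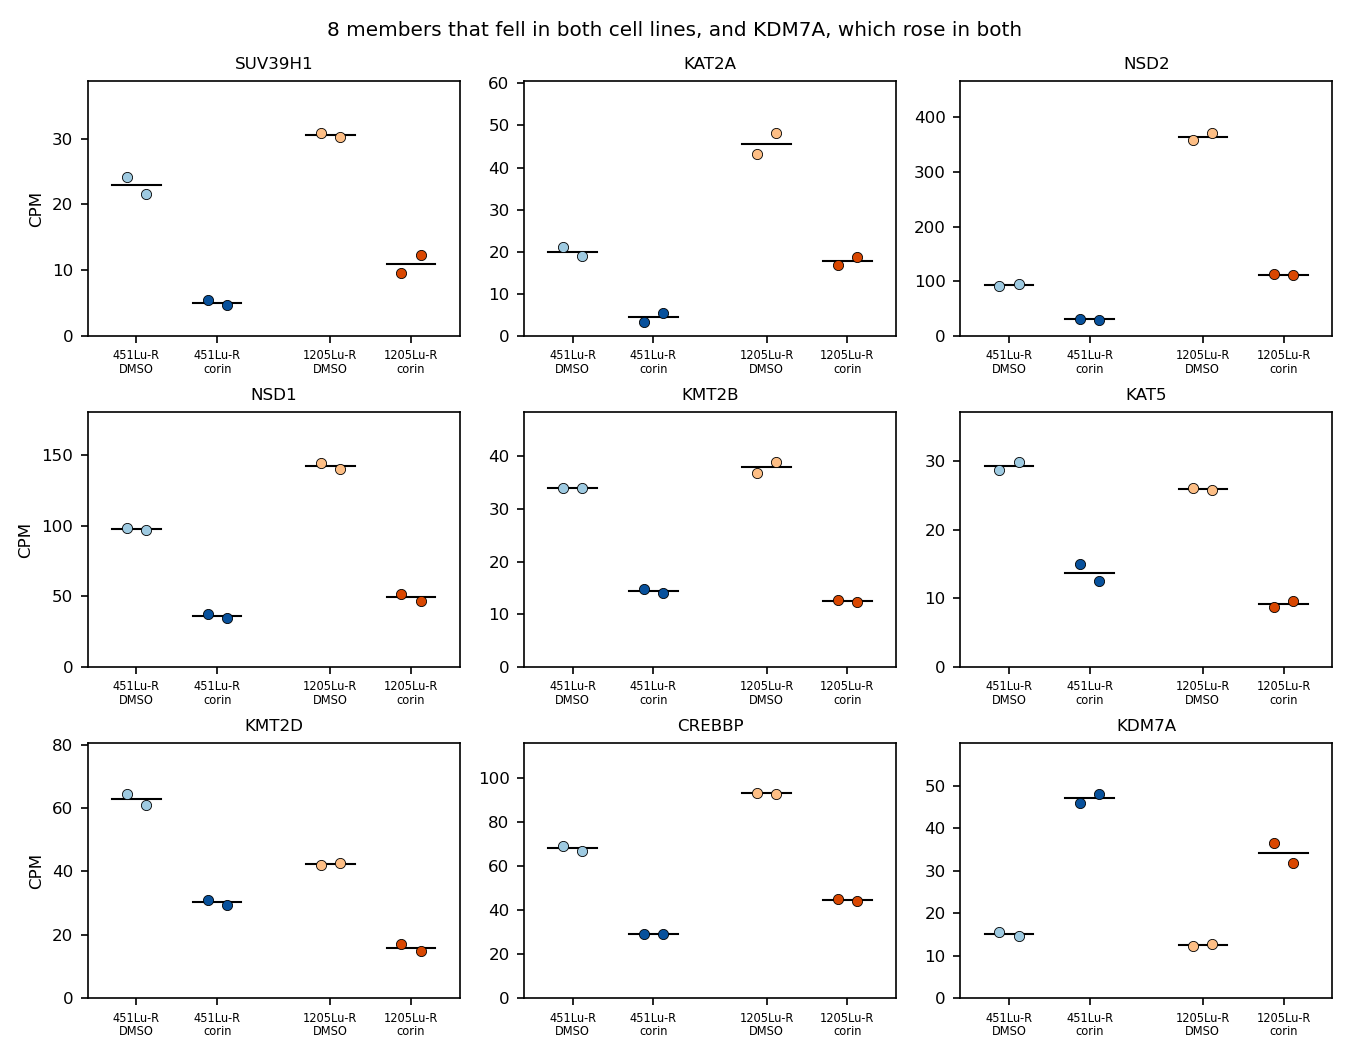
CPM (y axis, from 0) in the 4 groups (x axis) for the 8 members that fell in both lines and for KDM7A, with 1 point per library and a bar for the mean of 2 libraries. These members were chosen because they passed in both lines, so the separation of their corin and DMSO libraries follows from the choice. NSD2 starts at 358 and 371 CPM in 1205Lu-R and at 91.0 and 94.3 CPM in 451Lu-R.

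In all, 8 members fell in both lines (CREBBP, KAT2A, KAT5, KMT2B, KMT2D, NSD1, NSD2 and SUV39H1), which is 8 of the 20 that fell in 451Lu-R and 8 of the 11 that fell in 1205Lu-R. KDM7A and PRDM6 rose in both. Of the 61 members tested in both lines, 13.1% thus fell and 3.28% rose in both, beside 5.43% and 12.5% of the 13200 genes tested in both. Of the 61, 47 had the same sign in both lines (77.0%; all genes 76.5%), and the log2 fold changes had a Pearson's r of 0.47 and a Spearman's rho of 0.54 (0.69 and 0.68 over all genes), a description across genes of lines that share no library but were treated and processed alike.

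Promoters of members that moved together are shown as a description. Where corin acts at these genes was not examined. Windows from 250 bases before to 50 bases after the RefSeq start (GRCh38.p14) were matched for 57 of the 67 members other than KDM5D. Shown are the 3 largest falls, by the mean over both lines, among members that fell in both lines and had a single window, and KDM7A, which rose in both. The letters are 5′ to 3′ on the gene's strand, and capitals mark matches, on either strand, to CAGGTG (E-box of SNAI and ZEB factors), TGANTCA (AP-1), TGACGTCA (CRE), CCAAT (NF-Y), GGGCGG (GC box, CCGCCC on the other strand) or TATAAA.
NSD2, chr4:1871143-1871442, + strand: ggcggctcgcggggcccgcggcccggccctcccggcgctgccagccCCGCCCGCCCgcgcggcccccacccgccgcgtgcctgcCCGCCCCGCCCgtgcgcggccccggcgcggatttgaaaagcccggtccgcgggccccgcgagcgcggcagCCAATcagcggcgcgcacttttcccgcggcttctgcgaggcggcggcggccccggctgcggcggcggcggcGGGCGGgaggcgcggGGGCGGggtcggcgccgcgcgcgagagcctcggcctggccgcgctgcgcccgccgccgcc
KMT2B, chr19:35717753-35718052, + strand: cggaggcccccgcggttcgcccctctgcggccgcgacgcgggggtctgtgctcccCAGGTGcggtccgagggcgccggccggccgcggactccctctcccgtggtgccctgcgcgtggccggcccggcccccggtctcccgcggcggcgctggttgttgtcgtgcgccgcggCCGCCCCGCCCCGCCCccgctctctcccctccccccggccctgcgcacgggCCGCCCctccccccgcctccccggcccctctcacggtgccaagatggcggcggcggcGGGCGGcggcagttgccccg
KAT2A, chr17:42121318-42121617, − strand: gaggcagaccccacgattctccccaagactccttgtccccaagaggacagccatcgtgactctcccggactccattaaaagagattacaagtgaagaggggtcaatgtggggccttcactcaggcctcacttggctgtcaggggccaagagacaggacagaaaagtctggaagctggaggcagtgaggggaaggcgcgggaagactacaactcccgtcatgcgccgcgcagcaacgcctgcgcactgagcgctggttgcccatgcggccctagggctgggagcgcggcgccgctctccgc
KDM7A, chr7:140176934-140177233, − strand: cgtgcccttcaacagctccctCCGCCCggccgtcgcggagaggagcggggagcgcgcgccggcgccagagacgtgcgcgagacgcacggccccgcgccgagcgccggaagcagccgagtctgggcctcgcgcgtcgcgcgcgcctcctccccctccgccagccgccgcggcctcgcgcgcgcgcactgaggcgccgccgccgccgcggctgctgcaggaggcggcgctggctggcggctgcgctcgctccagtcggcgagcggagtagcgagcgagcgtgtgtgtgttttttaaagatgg

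The NSD2 window was 86.7% G and C, with 6 GC boxes and 1 CCAAT, and the KMT2B window was 83.3% G and C, with 5 GC boxes and 1 CAGGTG. The KAT2A window was 62.0% G and C and matched none of the 6 motifs, and the KDM7A window was 77.0% G and C with 1 GC box. Over all 88 member windows the median was 67.5% G and C, against 58.7% over all 35116 windows. A GC box was present in 71.6% of member windows and 45.0% of all windows, and TATAAA in 2.27% and 11.5%. Among windows of members that fell in both lines, 85.7% of 14 (from 8 genes) held a GC box. Among those of members that fell in neither line, it was 71.4% of 49 (from 37 genes). A gene with several windows is counted once for each. In the same 2 sets, CAGGTG was in 28.6% and 12.2% (all windows 20.6%), and TGANTCA in 0% and 10.2% (7.71%). CCAAT was in 28.6% and 34.7% (34.6%), TGACGTCA in 0% and 0% (1.85%), and TATAAA in 0% and 2.04%. These are descriptions of letters and carry no test.

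The PRDM family, zinc finger proteins with a SET-like domain of which several act as lineage regulators, was low in level and variable in direction. Of its 15 members, 12 were tested for 451Lu-R but 10 for 1205Lu-R; PRDM9, PRDM12 and PRDM14 were tested in neither, and KDM4E of the demethylases was at 0 in all libraries. The falls numbered 4 and the rises also 4 for 451Lu-R, against 1 fall and 2 rises for 1205Lu-R. Over all genes, 13.3% fell and 22.2% rose in 451Lu-R, and 9.80% fell and 22.0% rose in 1205Lu-R. The broadly expressed members were PRDM2 (RIZ1), at 0.62 ± 0.07 and 0.76 ± 0.09, and PRDM4, at 0.39 ± 0.08 and −0.01 ± 0.08.

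PRDM1 (BLIMP1), a repressor that drives terminal differentiation of several lineages, passed in opposite directions. In 451Lu-R, its estimated counts were 3 and 4 with DMSO, then 17 and 23 with corin, 0.268 and 0.402 CPM against 1.49 and 2.36 CPM (2.49 ± 0.51, adjusted p = 0.000183). In 1205Lu-R, it was abundant and fell from 29.7 and 30.7 CPM to 10.9 and 10.4 CPM (−1.46 ± 0.10, adjusted p = 1.97e-11). Its level with corin in 1205Lu-R remained above every 451Lu-R library.

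PRDM6, a repressor of smooth muscle genes, rose in both lines from low levels. In 451Lu-R, its DMSO libraries had 7 and 10 counts and its corin libraries 31 and 22 (1.64 ± 0.39, adjusted p = 0.000726). In 1205Lu-R, they had 1 and 3 against 56 and 40 counts. The latter is a 23.2-fold ratio, with an exact 95% interval from 8.76 to 86.7 that covers counting error only. PRDM16, a regulator of brown fat and stem cells, had 0 counts in both DMSO libraries of 451Lu-R and 40 and 33 counts with corin, at least 12.1-fold higher against a floor of 3 counts per library. In 1205Lu-R, PRDM16 had at most 4 counts in any library.

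PRDM7 fell in 451Lu-R from 17.5 and 14.9 CPM to 1.05 and 1.85 CPM (−3.49 ± 0.22, adjusted p = 1.06e-11) and had 0 counts in both DMSO libraries of 1205Lu-R. PRDM7 is a near-identical copy of the meiotic gene PRDM9, which had at most 3 counts in any library, so the split of reads between the pair is uncertain. PRDM10 and PRDM11 fell in 451Lu-R too (−1.68 ± 0.18 and −1.50 ± 0.15), and PRDM8 rose there from 4 and 0 counts to 16 and 13.

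**Figure D4:**
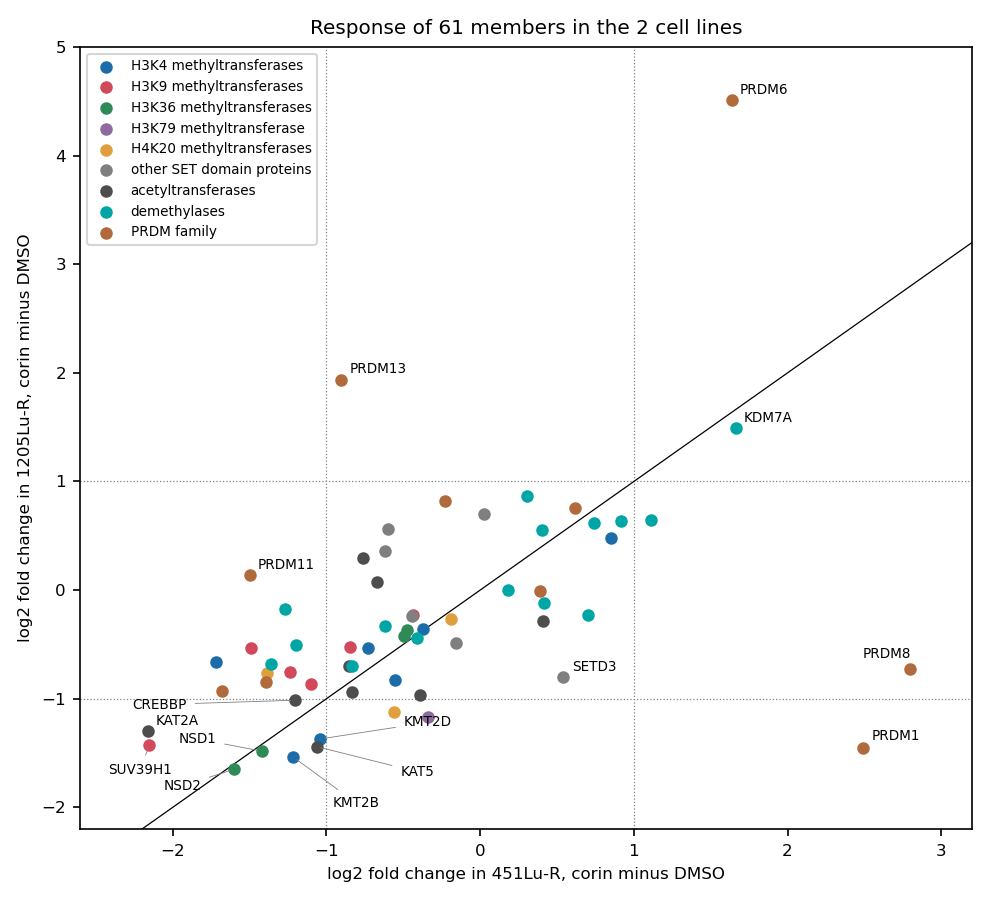
Log2 fold change (corin minus DMSO) of the 61 members tested in both lines, in 451Lu-R (x axis) and 1205Lu-R (y axis), coloured by role. The diagonal marks equal response, dotted lines mark 2-fold, and labels name members that passed in both lines or differed by more than 1.3 between the lines; most writers lie in the lower left, KDM7A in the upper right and PRDM1 and PRDM8 in the lower right.

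The difference in response between the lines was tested as an interaction over the 8 libraries. At the 2-fold rule, 8 of 63 members had the higher log2 fold change in 1205Lu-R (12.7%; all 16062 genes 9.34%) and 4 the lower (6.35%; all genes 9.46%), so the members' shares were near those of genes at large. Without the limit on fold change the counts were 19 and 20 (all genes 22.6% and 27.1%), and with the 4-fold limit 2 and 2 (2.43% and 3.13%). Without 1205Lu-R DMSO replicate 2, the 8 became 5.

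Of the 12, 8 were PRDM genes. PRDM1 differed by −3.98 ± 0.45 (adjusted p = 1.56e-07), and PRDM11 by 1.59 ± 0.17 (adjusted p = 5.39e-08), since PRDM11 had 19.6 and 19.6 CPM with DMSO and 21.5 and 20.2 CPM with corin in 1205Lu-R. PRDM13, a neural regulator, went from 4.11 and 4.52 CPM to 2.01 and 2.56 CPM in 451Lu-R and rose from 0.566 and 1.08 CPM to 2.82 and 3.27 CPM in 1205Lu-R, a difference of 2.80 ± 0.46 (adjusted p = 3.06e-05). PRDM15 differed by 1.01 ± 0.30 (adjusted p = 0.00846), and its 451Lu-R libraries overlapped between treatments (11.9 and 7.23 CPM against 6.47 and 10.0 CPM); it did not pass by DESeq2, nor without 451Lu-R DMSO replicate 1, 451Lu-R corin replicate 1, 1205Lu-R DMSO replicate 2 or 1205Lu-R corin replicate 2 (0.58 to 1.0).

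Outside the PRDM family, SETD3, the actin histidine methyltransferase, went from 37.8 and 39.5 CPM to 54.4 and 56.7 CPM in 451Lu-R and from 16.6 and 22.4 CPM to 9.36 and 11.97 CPM in 1205Lu-R, a difference of −1.38 ± 0.16 (adjusted p = 2.44e-07). KAT2B (PCAF), the paralog of KAT2A, went from 46.6 and 46.4 CPM to 27.7 and 26.4 CPM in 451Lu-R and from 12.8 and 14.2 CPM to 15.8 and 16.2 CPM in 1205Lu-R, a difference of 1.02 ± 0.13 (adjusted p = 6.44e-07) that was 0.94 without 1205Lu-R DMSO replicate 1. SETD1B differed by 1.02 ± 0.17, and SETD4 by 1.12 ± 0.26 with 7.24 CPM at most in 451Lu-R. SETD1B was under 2-fold without 451Lu-R DMSO replicate 2, 451Lu-R corin replicate 1, 1205Lu-R DMSO replicate 2 or 1205Lu-R corin replicate 2, at 0.93 to 1.0, and SETD4 without 1205Lu-R DMSO replicate 2, at 0.97.

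**Figure D5:**
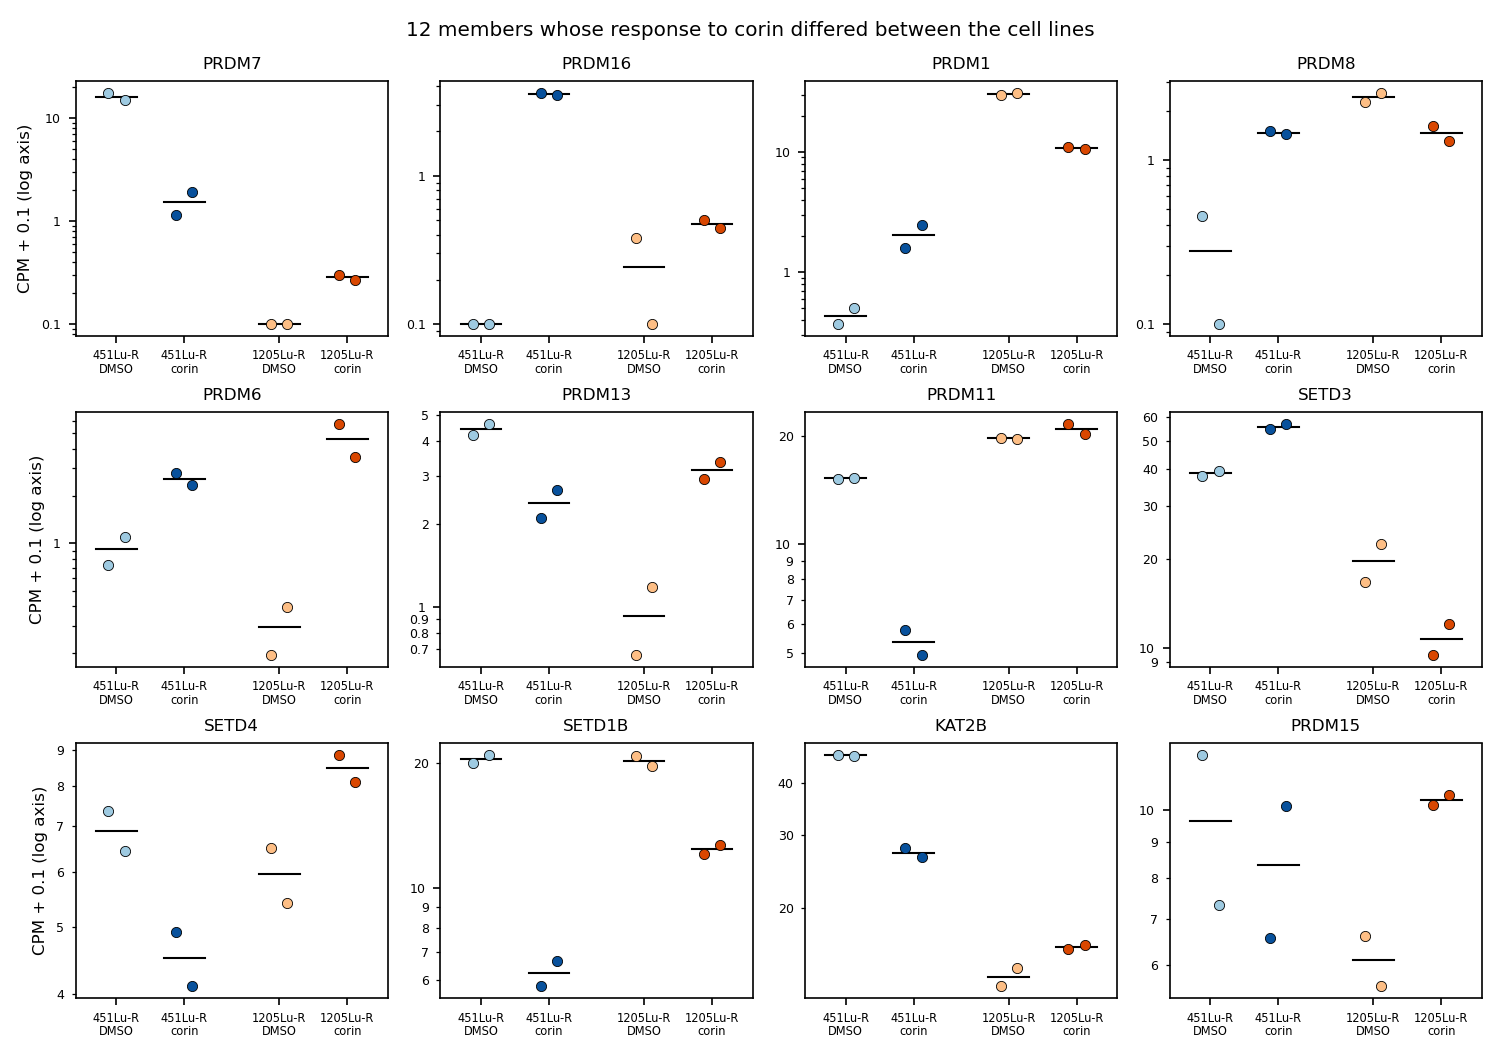
CPM plus 0.1 (y axis, logarithmic, separate for each panel) in the 4 groups (x axis) for the 12 members whose response differed between the lines, with 1 point per library and a bar for the mean of 2 libraries. PRDM1 is higher with corin in 451Lu-R and lower in 1205Lu-R, where it goes from 29.7 and 30.7 CPM to 10.9 and 10.4 CPM; points at 0.1 are libraries with 0 counts.

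The lines differed in 14 members after 24 h of vehicle. With DMSO, 5 were higher in 1205Lu-R (7.94%; all genes 19.3%) and 9 lower (14.3%; all genes 20.4%). Without the limit on fold change, 19 were higher and 27 lower (38.2% and 37.2% of all genes), and with the 4-fold limit 2 and 3 (9.38% and 9.35%). NSD2 was higher in 1205Lu-R by 1.998 ± 0.035 (adjusted p = 3.37e-22), KAT2A by 1.21 ± 0.10 and SETD7, an H3K4me1 and nonhistone methyltransferase, by 1.10 ± 0.04 (0.98, under the limit, when scaled by library size alone). PRDM1 was higher by 6.48 ± 0.23 and PRDM8 by 3.55 ± 0.62.

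Lower in 1205Lu-R with DMSO were SETDB2 (6.32 and 7.17 CPM against 30.9 and 35.7 CPM, −2.27 ± 0.12), KAT2B (−1.76 ± 0.08) and EHMT2 (21.0 and 22.2 CPM against 67.5 and 69.2 CPM, −1.64 ± 0.07). KDM5B, KDM6B and PRDM2 were lower by −1.35 ± 0.06, −1.24 ± 0.11 and −1.23 ± 0.08, and PRDM13 by −2.36 ± 0.35. PRDM7 was at least 56.1-fold lower against the floor of 3 counts, and PRDM6 was 4.18-fold lower (exact 95% interval 1.36 to 17.1). PRDM6 did not pass by DESeq2, nor without 451Lu-R DMSO replicate 2 or 1205Lu-R DMSO replicate 1 (−1.61 and −1.39). These are differences between 2 lines that also differed in every melanocyte marker examined, and their part in the members' levels was not tested.

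Per kilobase of the canonical transcript, the highest mean levels over the 8 libraries were those of NSD2 (19.8 CPM per kb), SETD7 (18.1), KDM4A (16.4), KDM5C (15.5) and EP300 (12.2). The order depended on the group: NSD2 was at 48.2 CPM per kb with DMSO and 14.8 with corin in 1205Lu-R, but at 12.3 and 3.98 in 451Lu-R, where KDM5C and EP300 were highest with DMSO (18.8 and 18.6). With corin in 451Lu-R, KDM4A and KDM5B were highest (23.15 and 21.95). Within each role the highest were KMT2E, placed in the H3K4 group by family name (7.93), EHMT2 for H3K9 (9.91), KMT5A for H4K20 (11.5), PRDM4 for the PRDM family (7.31) and DOT1L as the lone H3K79 writer (4.59).

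Members at 10 CPM or more had longer transcripts than other protein-coding genes at that level, with a median of 6768 against 3575 bases in the 451Lu-R comparison. Genes in the longest of 4 length classes had a median log2 fold change of 0.10 for 451Lu-R but −0.06 for 1205Lu-R, and the 32 and 30 members in that class had −0.49 and −0.46. Among all protein-coding genes at 10 CPM or more, 12.6% fell in 451Lu-R against 10.7% for 1205Lu-R, where among members it was 31.2% and 22.9%. The shares that rose were 14.4% and 11.2% of these genes, below those over all genes tested, and 4.17% and 2.08% of the members. Median log2 fold changes at this level were −0.08 and −0.15 for these genes and −0.56 and −0.51 for members.

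Partners of the enzymes were described from lists outside the rule. Beside the counts that follow, 13.3% of all genes tested fell and 22.2% rose in 451Lu-R. In 1205Lu-R, 9.80% fell and 22.0% rose. No list was tested as a set. Of 21 subunits of the MYST acetyltransferase complexes, 6 fell in 451Lu-R (median −0.70) and 7 fell in 1205Lu-R (median −0.71). By edgeR and DESeq2, 0 of them rose, and 4 and 2 were higher at an unadjusted p under 0.05. JADE2, a scaffold of KAT7 complexes, had the lowest value, from 100.2 and 94.5 CPM to 9.18 and 10.3 CPM in 451Lu-R (−3.31) and from 151 and 161 CPM to 17.7 and 18.4 CPM in 1205Lu-R (−3.06). EPC1 of the KAT5 complex (−2.08 and −1.60) and MSL1 of the KAT8 complex (−1.71 and −1.73) fell in both lines as well. Of 12 COMPASS subunits of the H3K4 enzymes, HCFC1 fell in both lines (−2.18 and −1.93), RBBP5 rose in 451Lu-R (1.05), and the medians were −0.51 and −0.20. Of 13 SAGA and ATAC subunits, 0 passed in either direction in either line by edgeR or DESeq2 (medians −0.39 and −0.40), while their catalytic subunit KAT2A fell. At an unadjusted p under 0.05, 10 of the 13 were lower and 2 higher for 451Lu-R, with 8 and 2 for 1205Lu-R. Of 23 other writers and demethylases tested, 5 rose against 2 that fell in 451Lu-R, with 2 against 3 for 1205Lu-R (medians −0.24 and −0.16). Among these, KDM1B, the paralog of the corin target LSD1, rose from 47.8 and 53.0 CPM to 145 and 144 CPM in 451Lu-R (1.54) and from 15.7 and 15.7 CPM to 48.2 and 49.4 CPM in 1205Lu-R (1.68).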

How the data were processed

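RNA-Seq was measured in 16 samples of the 451Lu-R and 1205Lu-R lines, of which the 8 corin and DMSO libraries, 2 in each of 4 groups, are used here. Per the labels, reads were trimmed with Trimmomatic and quantified with Salmon against GENCODE release 32 and summed to genes; versions are not given in the sources used here. The authors deposited estimated counts per gene, not normalized, for these 8 libraries. Their tables for PLX4032 plus corin against PLX4032 hold the authors' own log2 fold changes and adjusted p-values, which were not used.

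Estimated counts were rounded and fitted in R 4.3.3 with edgeR 4.0.16 (filterByExpr, TMM, glmQLFit, glmQLFTest, 2-sided, Benjamini-Hochberg over all genes tested). Corin was compared with DMSO within each line on 4 libraries; the interaction and the DMSO comparison used all 8. Salmon can split reads between near-identical copies, such as PRDM7 and PRDM9, and whether strand was used is not stated. SE is the absolute log2 fold change divided by the square root of the F statistic, and CPM used the TMM factors (0.959 to 1.05). Names, positions and lengths came from GENCODE 44 (34052 of 34228 genes matched), and promoter windows from RefSeq. A group with 3 counts or fewer in each library was at the floor; exact 95% intervals of ratios cover counting error only. Replicates correlated with r of 0.995 to 0.996 (log2 CPM, across genes), with a chi-square per degree of freedom of 1.34 to 1.40. This spread is close to counting error alone, so it cannot show whether replicates were separate cultures. Each library was counted as 1 sample. Labels give no batch or date.

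Named genes were, in each comparison, at most 12 members past the thresholds by absolute log2 fold change with a mean of 1 CPM or more in a group, the 5 with the highest level per kilobase and the highest of each role; paralogs and other members were added after their values were seen, as were the partner genes named. KDM5D enters only the counts of members by name, not those of tests or the sums. The values of 1 other member are not reported here, but it is included in all counts. The members and lists were chosen with earlier results of these data known. Alternatives were DESeq2 1.42.0, scaling by RLE or by library size alone, no filter or one at a mean of 1 CPM, a replicate block, all 8 libraries in 1 fit, both other thresholds, and leaving out each library in turn. The fits were tested on simulated data.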

Additional observations from a re-analysis of the deposited data

Results flagged for a closer look

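The response to corin differed between the lines by the interaction test, at a 2-fold difference or more, in 12 members, each given as the log2 fold change in 1205Lu-R minus that in 451Lu-R. It was 7.55 for PRDM7 (adjusted p = 0.000972, edgeR quasi-likelihood test) and −6.87 for PRDM16 (adjusted p = 0.00771); each had at most 3 counts per library in 1 or both DMSO groups, so these sizes depend on the prior count and are no measure of the difference. PRDM16 did not pass without 1205Lu-R DMSO replicate 1 (−3.16).

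PRDM1 differed by −3.98, with a rise in 451Lu-R from 3 and 4 counts and a fall in 1205Lu-R from 315 and 313 counts. PRDM8 differed by −3.56 (adjusted p = 0.000829), with 4 and 0 counts in the DMSO libraries of 451Lu-R. PRDM6 differed by 2.84 (adjusted p = 0.0055), with 1 and 3 counts in the DMSO libraries of 1205Lu-R.

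For the others, the difference was 2.80 for PRDM13, 1.59 for PRDM11, −1.38 for SETD3, 1.12 for SETD4, 1.02 for SETD1B, 1.02 for KAT2B and 1.01 for PRDM15. PRDM13, SETD3, SETD4 and KAT2B had opposite signs in the 2 lines with an FDR under 0.05 in each, and SETD1B was lower in both.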

How the results depend on the processing

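Over 34 named members in 4 comparisons, 1675 alternative values were computed; 1645 kept their side of the threshold, 18 no longer passed and 12 newly passed, 23 of these with a library left out. Of the 1645, 25 had the other sign or 0, in results that passed under neither setting; PRDM15 in 451Lu-R went from −0.23 to 0.18 without DMSO replicate 1 and 0.08 without corin replicate 1. No result that passed changed sign. Without a limit on fold change, members higher and lower numbered 18 and 42 for 451Lu-R, 15 and 37 for 1205Lu-R, 19 and 20 for the interaction and 19 and 27 between lines with DMSO; at 4-fold and an FDR under 0.001 they numbered 3 and 3, 1 and 0, 2 and 2, and 2 and 3. With a library left out, the number of members with a higher log2 fold change in 1205Lu-R than in 451Lu-R could move either way from 8. A lone library was then assumed to vary like the others. The replicate block left the counts at 6 and 20 for 451Lu-R, 3 and 11 for 1205Lu-R, 8 and 4 in the interaction and 5 and 9 with DMSO. Same-numbered libraries did not deviate together (r of −0.00496 and −0.0178 across genes). With 2 libraries per group, this cannot show whether they shared a batch. Scaling to library size alone moved the median of all genes in the interaction from −0.01 to 0.20. The count of members with a higher log2 fold change in 1205Lu-R than in 451Lu-R went from 8 to 12. With 2 libraries per group and few counts, changes of the low PRDM genes were detectable only when large.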
